A study of Mus musculus with 11 samples.

Results

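Primary mouse microglia that had spent 6 h beside fibril-loaded neurons were compared, across all genes, with microglia cultured alone. The comparison rests on 8 of the 11 libraries of the series. These are 4 libraries on each side, named here fibril 1 to fibril 4 and alone 1 to alone 4. The cells of all groups were passage 0 microglia of C57BL/6 mice, taken from pups aged 0 to 3 days and cultured for 7 to 10 days in serum-containing medium. The neurons were cortical and had been 14 days in vitro. For the fibril group they received 0.1 µM α-synuclein fibrils carrying the Atto488 dye for 16 h, were washed, and then shared the culture with microglia for 6 h. Microglia alone met neither neurons nor fibrils, so the presence of neurons and the presence of fibrils cannot be told apart in this comparison. A group of 3 libraries from microglia with untreated neurons (untreated 1 to untreated 3) is used only to give values beside it. The labels do not say how microglia were separated from neurons, whether pups were pooled, or whether libraries came from separate cultures. The p-values therefore measure the spread between these libraries, which may be technical.

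Microglia are the resident macrophages of the brain. They clear debris and protein aggregates, sense microbial and aggregate ligands through Toll-like receptors, and depend on transforming growth factor-β (TGF-β) for their mature state. α-Synuclein is a neuronal protein whose fibrillar aggregates define Lewy pathology in Parkinson disease, and microglia take such fibrils up. Toll-like receptor ligands act through the transcription factor NF-κB, which switches on inflammatory mediators together with its own inhibitor IκBα, while interferon acts through STAT proteins that switch on antiviral genes.

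RNA was read with a 3′ mRNA sequencing kit, and levels are given as CPM, which are counts scaled to library size after TMM adjustment. Total counts ran from 8253070 to 14844071 in the fibril group and from 10700940 to 14541179 in the alone group. The 20 pan-microglial and macrophage markers were all detected, with summed levels of 22995 ± 2652 CPM (SD, n = 4) in the fibril group and 19852.5 ± 791 CPM (SD, n = 4) alone. P2ry12, a purinergic receptor used as a mark of mature microglia, was low and uneven between libraries in both groups. It was at 6.88 ± 9.62 and 2.28 ± 3.99 CPM (SD, n = 4 each), with 0 to 20.5 CPM in single fibril libraries and 0 to 8.24 CPM alone. Tmem119, another such marker, was at 23.5 ± 14.7 and 9.32 ± 12 CPM (SD, n = 4 each). The ribosomal RNA precursor Rn45s took 12.8 ± 2.85% of counts in the fibril group and 19.4 ± 4.45% alone (exact permutation p = 0.0571, where the smallest possible p is 0.0286). Fibril 1 stood apart from fibril 2 to 4: it had the fewest detected genes (9157 against 10378 to 10593) and the largest Rn45s share of its group (17.0% against 11 to 11.7%). The number of calls, the gene Rsad2 and several list medians are given with and without it. For other called genes only the loss of a call without it is stated.

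In the fibril group 30 genes were higher and 6 were lower than in microglia alone, of 11276 tested (edgeR quasi-likelihood test, Benjamini-Hochberg adjusted p under 0.05), which is 0.319% of genes in all, 0.266% for rises and 0.0532% for falls. The rises included targets of TGF-β signalling (Tgfbi, Pmepa1, Fn1), inflammatory genes (Acod1, Sod2, Tlr2, Nfkbia), the fractalkine receptor Cx3cr1 and the antiviral gene Rsad2. The falls were Igfbpl1, Tox2, Hpgd, Tubb2b, Rasgrp3 and Scd2. All 36 are protein-coding genes, and 28 had at least 10 CPM in both groups. The fibril and alone CPM ranges did not overlap for any of the 36, which adds no support, since the genes were called on these same libraries. Of all tested genes 5.62% had ranges apart (2.7% higher and 2.92% lower in the fibril group). The rises were large, with 22 of 30 at least 4-fold. Without fibril 1 the counts were 25 higher and 5 lower. Across the 8 fits that each left out 1 library, 20 of the 36 genes (18 higher, 2 lower) stayed called every time. Without alone 2 the total dropped to 23 genes. At an unadjusted p under 0.05 there were 918 genes (479 higher, 439 lower), 8.14% of those tested.

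**Figure D1:**
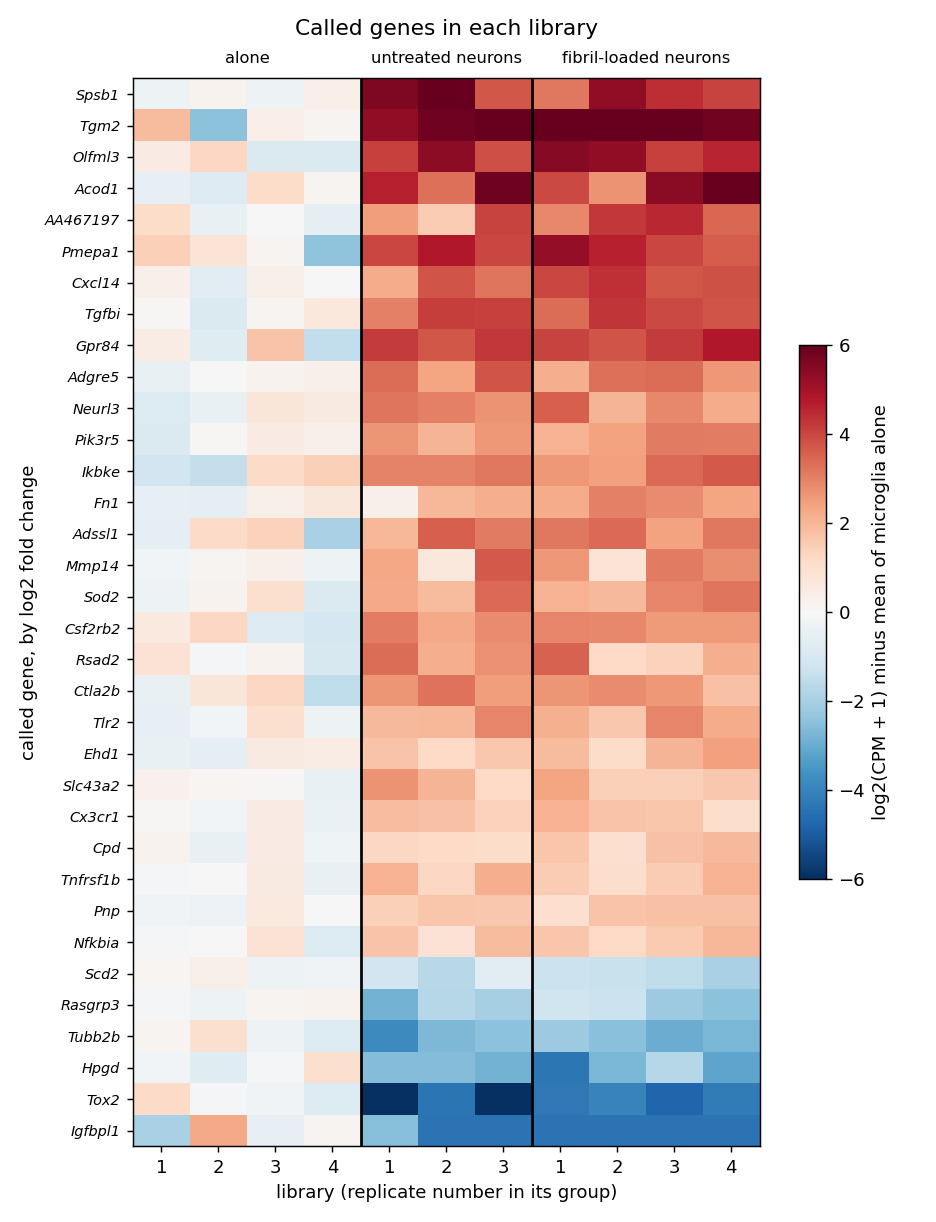
Level of 34 of the 36 called genes (rows, ordered by fold change) in each of the 11 libraries (columns), as log2(CPM + 1) minus the mean of the 4 alone libraries, with colours capped at 6. The 4 fibril columns are red for the 28 rises shown and blue for the 6 falls, and the spread within a group is seen by comparing neighbouring columns.

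Genes of the TGF-β response were among the largest rises, and the 3 described here stayed called in all 8 fits that left out 1 library. Tgfbi encodes a secreted matrix protein induced by TGF-β. Its levels were 205, 394, 315 and 272 CPM in fibril 1 to 4 against 20.4, 9.92, 21.9 and 30.3 CPM in alone 1 to 4. This 14.4-fold rise (log2 3.84, SE 0.38, adjusted p = 9.7e-06) came with groups far apart, since every fibril library exceeded every alone library several times over. In GENCODE M21, on the mm10 assembly, Tgfbi spans chr13:56609523-56639562 (plus strand).

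Pmepa1, a transmembrane protein, binds SMADs and dampens TGF-β signalling. It stood at 691, 443, 282 and 219 CPM beside fibril-loaded neurons and at 46.5, 30.3, 18.8 and 2.34 CPM alone (16.7-fold, log2 4.06, SE 0.59, adjusted p = 0.000948). Fn1, which encodes fibronectin, rose 6.07-fold from 22.1 ± 9.68 to 135 ± 34.0 CPM (SD, n = 4 each; adjusted p = 0.00584). They are among the 4 called members of a list of 28 TGF-β ligands, receptors, SMADs and targets, of which 26 could be tested. The fitted change was above 0 for 19 of the 26, and the median was 0.88 (log2) for the 15 members whose mean reached 10 CPM on both sides, beside −0.03 for all 6778 such genes. Without fibril 1 that median was 0.76. In single libraries these members stood at 1.07, 0.92, 0.63 and 0.65 in fibril 1 to 4 and at 0.07, −0.21, 0.34 and −0.11 in alone 1 to 4, as the median of log2(CPM + 1) minus the alone mean, which did not overlap. Skil, which encodes a SMAD co-repressor and is picked out here after its values were seen, stood at 84.6 ± 28.8 against 22.6 ± 12 CPM (SD, n = 4 each) and missed the threshold (log2 1.90, 95% interval 0.97 to 2.84, adjusted p = 0.0935).

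Further rises were in secreted and matrix-related genes outside that list. Tgm2 encodes transglutaminase 2, which crosslinks extracellular proteins. It was at 404, 352, 401 and 312 CPM in fibril 1 to 4 and at 19.8, 0, 6.47 and 5.27 CPM in alone 1 to 4, a 46.3-fold rise (log2 5.53, SE 0.75, adjusted p = 0.000694), which was log2 6.56 without alone 1. Its exons overlap those of Rprd1b on the opposite strand, and whether counting used strand is not given in the sources used here. Cxcl14, a chemokine, was at 335, 436, 270 and 291 CPM against 24.8, 12.2, 25.1 and 19.4 CPM (16.3-fold, log2 4.03, SE 0.38, adjusted p = 5.92e-06), the smallest adjusted p of the comparison. Cxcl14 spans chr13:56288643-56296551 (minus strand), in the same stretch of chromosome 13 as Tgfbi. Mmp14, a membrane-anchored matrix metalloproteinase, was at 296, 85.4, 423 and 341 CPM against 39.0 to 59.2 CPM alone (5.91-fold, adjusted p = 0.0195). Fibril 2 lay closest to the alone range, and the call was lost without alone 1, 2 or 4 or fibril 1, 3 or 4 (adjusted p up to 0.106). Olfml3, a secreted glycoprotein enriched in microglia, was almost absent alone, at 1.57, 3.27, 0 and 0 CPM, and stood at 79.1, 71.2, 29.8 and 42.0 CPM in the fibril group (log2 5.52, or 6.70 without alone 2, adjusted p = 0.0193). Its call was lost without alone 1, fibril 1 or fibril 2 (adjusted p up to 0.0648).

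The inflammatory genes that rose span an enzyme, receptors and regulators of NF-κB. Acod1, also known as Irg1, makes the antimicrobial metabolite itaconate. It was at 155, 63.8, 435 and 964 CPM in fibril 1 to 4 and at 6.19, 4.96, 20.6 and 10.3 CPM in alone 1 to 4. The fibril libraries differed widely among themselves (405 ± 405 CPM, SD, n = 4), yet the lowest lay above the highest alone library, and the fold was 38.4 (log2 5.26, SE 0.73, adjusted p = 0.000694). Without fibril 4, the highest library, it was log2 4.37. The gene spans chr14:103046977-103056573 (plus strand). Sod2, the mitochondrial superoxide dismutase, was at 475, 435, 841 and 1051 CPM against 89.6, 127, 220 and 60.4 CPM (5.64-fold, adjusted p = 0.00486). Tlr2, a receptor for bacterial lipopeptides that has been linked to α-synuclein recognition, was at 246, 176, 431 and 263 CPM against 40.0, 50.5, 109 and 44.4 CPM (4.58-fold, log2 2.19, SE 0.38, adjusted p = 0.00584). These 3 calls held in every fit that left out 1 library.

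Nfkbia, which encodes the NF-κB inhibitor IκBα, was at 1268, 893, 1194 and 1575 CPM against 381, 405, 714 and 221 CPM (2.86-fold, adjusted p = 0.0393). Its call was lost without alone 1, 2 or 4 or fibril 1, 3 or 4 (adjusted p up to 0.146). Ikbke, a kinase upstream of interferon regulatory factors, was at 196, 177, 343 and 415 CPM against 13.9, 11, 72.0 and 87.5 CPM (6.13-fold, adjusted p = 0.0201), a call lost without alone 1 or 2 or fibril 3 or 4 (adjusted p up to 0.0878). Tnfrsf1b, a receptor for tumour necrosis factor, was at 362 ± 109 against 123 ± 37.1 CPM (SD, n = 4 each; 2.95-fold, adjusted p = 0.0201) and was lost without alone 1, 2 or 4 or fibril 3 or 4 (adjusted p up to 0.096). Neurl3, an E3 ubiquitin ligase gene, was at 304, 104, 187 and 120 CPM against 13.6, 17.7, 41.1 and 36.6 CPM (6.56-fold, adjusted p = 0.00169) and stayed called in all 8 such fits.

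Of a list of 40 NF-κB targets and inflammatory mediators, 37 could be tested and 4 were called higher (Acod1, Sod2, Tlr2, Nfkbia) and none lower. The fitted change was above 0 for 32 of 37, and the median over the 28 members of at least 10 CPM was 1.02 (log2), or 1.21 without fibril 1. In single libraries the list stood at 1.05, 0.62, 1.31 and 1.85 in fibril 1 to 4 and at −0.23, −0.06, 0.72 and −0.39 in alone 1 to 4, as the median over those members of log2(CPM + 1) minus the alone mean. The groups overlapped, since fibril 2 lay below alone 3. The best-known cytokines of the list did not pass the test. Tnf was at 214, 15.2, 157 and 244 CPM in fibril 1 to 4 against 49.1, 28.4, 78.0 and 71.1 CPM alone (log2 1.48, 95% interval 0.32 to 2.63, adjusted p = 0.45), so that fibril 2 lay below every alone library. Il1b, which encodes interleukin-1β, was at 0, 0, 26 and 74.2 CPM against 0, 14.6, 19 and 4.85 CPM (adjusted p = 1). Tnfaip2, a tumour necrosis factor target that takes part in membrane nanotube formation, was at 853, 248, 1005 and 1435 CPM against 475, 444, 511 and 425 CPM (log2 0.93, 95% interval 0.06 to 1.80, adjusted p = 0.581).

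The promoters of 3 of these rising genes are printed because short motifs of the inflammatory and interferon responses stand in them. Each line gives the 150 bases before the annotated start from RefSeq on build GRCm38.p6, on the strand of the gene, with the matches in capitals. Neurl3 is at chr1:36273426-36273575 (minus strand), with an NF-κB match that begins 110 bases before the start. Nfkbia is at chr12:55492648-55492797 (minus strand), with an NF-κB match 29 bases before it. Rsad2, described next, is at chr12:26456453-26456602 (minus strand), with an interferon-stimulated response element (ISRE) core 120 bases and an AP-1 match 87 bases before it.
Neurl3: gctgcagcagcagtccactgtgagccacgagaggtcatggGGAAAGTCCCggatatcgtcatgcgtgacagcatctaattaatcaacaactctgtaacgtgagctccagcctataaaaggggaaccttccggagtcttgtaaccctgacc
Nfkbia: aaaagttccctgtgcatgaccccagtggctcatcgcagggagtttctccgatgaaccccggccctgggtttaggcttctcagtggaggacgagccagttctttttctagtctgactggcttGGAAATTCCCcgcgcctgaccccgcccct
Rsad2: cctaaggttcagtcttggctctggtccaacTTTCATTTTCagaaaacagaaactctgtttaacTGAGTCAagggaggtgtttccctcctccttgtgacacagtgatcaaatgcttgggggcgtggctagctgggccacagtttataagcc
Both strands were searched in windows of 250 bases before to 50 after each start, which were at hand for 23 of the 30 rising genes and 3 of the 6 falling ones. The NF-κB motif, GGGA and TTTCC with 1 free base between them, stood in 2 of 23 rising genes (Neurl3 and Nfkbia) and in 0.528% of the 9083 tested genes with a window. The ISRE core, GAAA repeated after 2 free bases, stood in 4 of 23 (Rsad2, Tnfrsf1b, Cxcl14 and Tgfbi), beside 3.88% of tested genes. The AP-1 letters TGANTCA stood in 5 of 23 (Ikbke, AA467197, Rsad2, Adssl1 and Ctla2b), beside 5.91% of tested genes. Of the 3 falling genes with a window, Tox2 held the ISRE core. Over all 32851 windows of that length the shares were 0.411%, 3.44% and 7.81%. The motifs do not overlap one another in the sequences shown, and a match is a description of letters only.

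Genes of the type I interferon response leaned upwards as a group, although only 1 passed the test. Rsad2, which encodes the antiviral enzyme viperin, was at 1209, 237, 272 and 458 CPM in fibril 1 to 4 and at 185, 95, 117 and 52.3 CPM in alone 1 to 4 (4.84-fold, log2 2.27, SE 0.46, adjusted p = 0.0259). Fibril 1 was far above the rest of its group, and without it the change was log2 1.52 and did not pass (adjusted p = 0.144). The call was also lost without alone 2, 3 or 4 (adjusted p up to 0.126). All 37 members of the interferon list could be tested, and the fitted change was above 0 for all 37, of which 22 had an unadjusted p under 0.05. Their median was 1.19 (log2) over the 30 members of at least 10 CPM. Without fibril 1, 34 of 37 were above 0 and the median was 0.73.

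The level of the interferon list in single libraries, as the median over its 30 members of log2(CPM + 1) minus the alone mean, was 2.06 in fibril 1 and 0.70, 0.89 and 1.12 in fibril 2 to 4. In alone 1 to 4 it was 0.66, −0.08, 0.13 and −0.54, so the groups did not overlap but fibril 2 stood just above alone 1. Uncalled members, chosen after their values were seen, include Ifit3, an interferon-induced RNA-binding protein, at 276 ± 202 against 72.7 ± 38.1 CPM (SD, n = 4 each; adjusted p = 0.0742). Oasl2, an oligoadenylate synthetase-like protein, was at 126 ± 33.2 against 47.1 ± 17.6 CPM (SD, n = 4 each; adjusted p = 0.144).

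**Figure D2:**
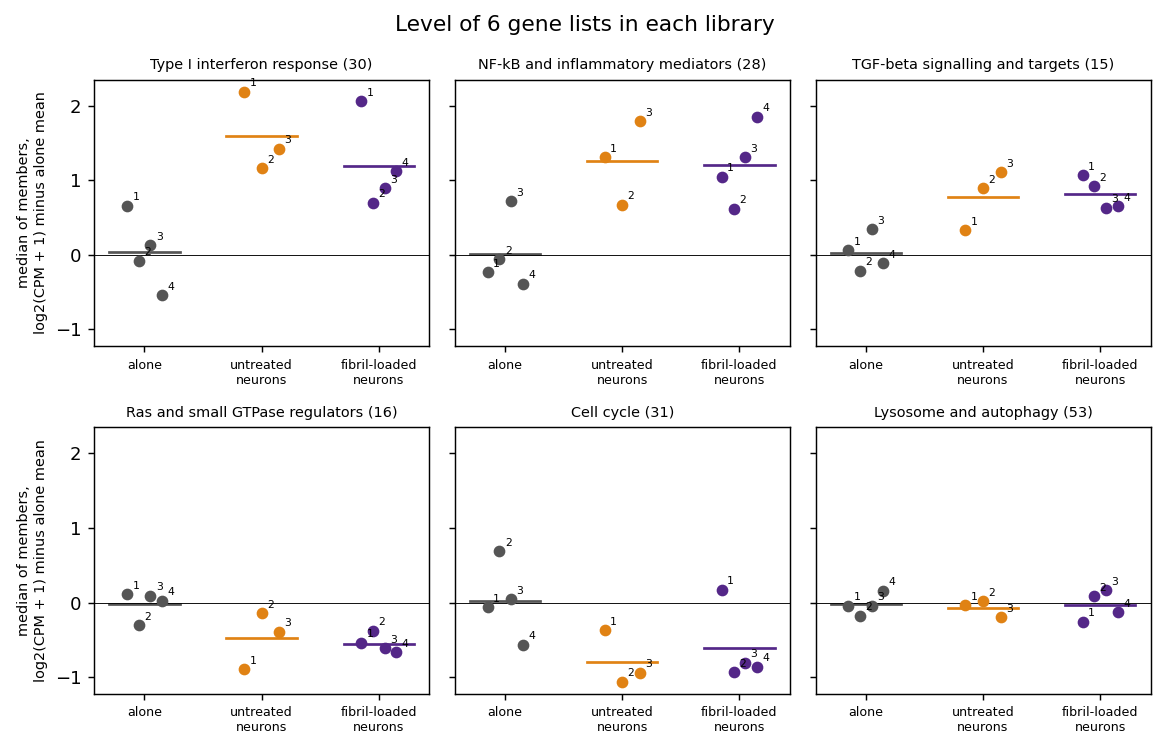
Level of 6 gene lists in each library, as the median, over members whose mean reached 10 CPM on both sides (their number in brackets), of log2(CPM + 1) minus the alone mean, with the horizontal bar at the group mean and numbers naming the library. Fibril 1 is the highest fibril library for the interferon list (2.06) and the only one above 0 for the cell cycle list (0.17), while the lysosome list stays near 0 in every library.

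Among genes of the microglial surface and signalling, Cx3cr1 was the most abundant of those that rose. This receptor for the neuronal chemokine fractalkine was at 2479, 1904, 1844 and 1204 CPM in fibril 1 to 4 and at 621, 525, 813 and 447 CPM in alone 1 to 4 (3.09-fold, log2 1.63, SE 0.27, adjusted p = 0.00527). It spans chr9:119901616-120069879 (minus strand). With Olfml3 it was 1 of 2 called members of the homeostatic microglia list (23 tested, 13 above and 10 below 0, median log2 0.03 over 19 members of at least 10 CPM). The other members did not move as one. From the fixed set of genes of interest, Trem2, a lipid and lipoprotein receptor, stood at 759 ± 107 against 748 ± 168 CPM (SD, n = 4 each; log2 0.02, 95% interval −0.50 to 0.54). Apoe, its lipoprotein ligand, stood at 10785 ± 2361 against 13099 ± 1712 CPM (SD, n = 4 each; log2 −0.28, 95% interval −0.80 to 0.24).

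Gpr84, a receptor for medium-chain fatty acids, was at 350, 293, 389 and 585 CPM in fibril 1 to 4 against 28.3, 11.9, 69.3 and 6.69 CPM in alone 1 to 4 (13.9-fold, log2 3.80, SE 0.52, adjusted p = 0.000694), or log2 4.71 without alone 3. Pik3r5, a regulatory subunit of the phosphoinositide 3-kinase used by G protein-coupled receptors, was at 124, 157, 257 and 247 CPM against 15.1, 30.2, 40.7 and 35.4 CPM (6.46-fold, adjusted p = 0.000694). Adgre5, the adhesion receptor CD97, was at 51.9 ± 19.3 against 6.02 ± 1.53 CPM (SD, n = 4 each; 8.61-fold, adjusted p = 0.00617). These calls held in all 8 fits that left out 1 library. So did that of Csf2rb2, a β chain of the interleukin-3 receptor, at 181 ± 26.7 against 32.8 ± 24.3 CPM (SD, n = 4 each; 5.52-fold, adjusted p = 0.00694). Its sequence is close to that of Csf2rb, and reads of the pair may be divided between them.

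The remaining rises covered intracellular signalling, traffic and metabolism. Spsb1, an adaptor of a ubiquitin ligase, was at 10.0, 47.4, 25.3 and 19.3 CPM in fibril 1 to 4, while alone 1 to 4 held 0, 0.397, 0 and 0.585 CPM (log2 6.66, SE 1.15, adjusted p = 0.00597), or log2 7.58 without alone 4. Ehd1, an endosomal recycling ATPase, was at 890 ± 319 against 243 ± 93.0 CPM (SD, n = 4 each; 3.67-fold, adjusted p = 0.00584). Cpd, carboxypeptidase D, was at 401 ± 99.2 against 132 ± 39.2 CPM (SD, n = 4 each; 3.04-fold, adjusted p = 0.008). All 3 stayed called in the 8 fits. With the 2 compared groups fitted alone, without the untreated libraries, Spsb1 did not pass (edgeR adjusted p = 0.102). The amino acid transporter gene Slc43a2 was at 929, 480, 485 and 542 CPM against 133 to 211 CPM alone (3.36-fold, adjusted p = 0.0106), and was lost without alone 4 or fibril 1 (adjusted p up to 0.0571). Pnp, purine nucleoside phosphorylase, was at 213, 347, 359 and 357 CPM against 82.3 to 160 CPM (2.93-fold, adjusted p = 0.0118), and was lost without alone 2 or fibril 3 (adjusted p up to 0.0579). It has a close neighbouring copy, Pnp2, with which reads may be shared.

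A further 3 rises lost their call in most of the fits that left out 1 library. Ctla2b, a cysteine protease inhibitor-like protein with a near copy in Ctla2a, was at 220 ± 62.9 against 48.0 ± 34.6 CPM (SD, n = 4 each; adjusted p = 0.0281), lost without alone 1, 2 or 4 or fibril 1, 2 or 3 (adjusted p up to 0.129). Adssl1, an adenylosuccinate synthase, was at 166 ± 43.9 against 27.8 ± 23 CPM (SD, n = 4 each; adjusted p = 0.0421), and its call remained only without alone 3 (adjusted p up to 0.174 in the others). AA467197, a small protein gene that hosts the microRNA Mir147, was at 24.6, 63.6, 77.4 and 36.8 CPM against 6.27, 1.49, 2.39 and 1.25 CPM (log2 4.14, or 4.90 without alone 1, adjusted p = 0.0195), lost without alone 2, 3 or 4 or fibril 2 or 3 (adjusted p up to 0.127).

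Of the 6 falls, Hpgd and Tubb2b stayed called in every fit that left out 1 library. Hpgd encodes the enzyme that inactivates prostaglandin E2. It was at 9.17, 29.1, 61.7 and 21.8 CPM in fibril 1 to 4 and at 180, 120, 194 and 392 CPM in alone 1 to 4, a 7.28-fold fall (log2 −2.86, SE 0.48, adjusted p = 0.00563), or log2 −3.47 without fibril 3. Tubb2b, a β-tubulin of developing neurons that shares much sequence with Tubb2a, was at 125, 101, 71.9 and 85.3 CPM against 639, 1121, 457 and 324 CPM, a 6.64-fold fall (log2 −2.73, SE 0.38, adjusted p = 0.000694). Hpgd spans chr8:56294585-56321043 (plus strand) and Tubb2b spans chr13:34126748-34130466 (minus strand). In both genes the highest fibril library lay well under the lowest alone library.

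Scd2, a stearoyl-CoA desaturase that makes monounsaturated fatty acids, was at 129, 126, 107 and 81.4 CPM against 345, 402, 257 and 273 CPM (2.88-fold lower, adjusted p = 0.0193), and was lost without alone 1 or 2 or fibril 3 or 4 (adjusted p up to 0.0878). Rasgrp3, a guanine nucleotide exchange factor for Ras and Rap, was at 97.1, 92.7, 48.9 and 40.6 CPM against 206, 184, 255 and 265 CPM (3.26-fold lower, adjusted p = 0.0314), and was lost without any 1 of the alone libraries or without fibril 3 or 4 (adjusted p up to 0.154). Tox2, a transcription regulator of the HMG-box family, was at 7.64, 9.46, 5.35 and 8.16 CPM against 373, 155, 148 and 96.1 CPM (25.2-fold lower, adjusted p = 0.0309). Its groups lay far apart, but the call remained only without alone 4 (adjusted p up to 0.186 in the others), and DESeq2 gave an adjusted p of 0.0533. Igfbpl1, a secreted protein of the insulin-like growth factor-binding family, had no count in the fibril libraries and stood at 4.54, 102, 14.3 and 22.7 CPM alone, at least 138-fold lower against a floor of 3 counts per library (adjusted p = 0.0361). Its call remained only without alone 1, and without alone 2, the highest library, the bound was at least 53.3-fold lower (adjusted p = 0.367).

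Neuronal markers, taken as a sum, were also lower beside fibril-loaded neurons than in microglia alone, although single markers lay on both sides. The summed level of 32 neuronal markers was 1028 ± 167 CPM (SD, n = 4) in the fibril group and 1505 ± 94.6 CPM (SD, n = 4) alone, with ranges of 846 to 1252 and 1406 to 1622 CPM (log2 −0.56, two-sided exact permutation p = 0.0286, the smallest possible, and 0.229 after Benjamini-Hochberg adjustment over 8 marker lists). Most of that sum was Basp1, at 950 ± 152 against 1264 ± 142 CPM (SD, n = 4 each). The level of the sum therefore mainly reflects this 1 gene, and whether its RNA came from neurons was not tested. Basp1 was not the only marker to lie lower, as given below. Doublecortin (Dcx), a marker of immature neurons chosen here after its values were seen, was at 2.59 ± 3.10 against 48.6 ± 22.4 CPM (SD, n = 4 each). Of the markers of mature neurons, Snap25, Vsnl1, Nefh and Slc17a6 had no count in any of the 8 libraries. Others, also chosen after their values were seen, lay above 0 in 1 group or both. Nrgn (neurogranin) was at 15.1 ± 17.7 CPM in the fibril group and had no count alone, and Camk2a, a synaptic kinase subunit, was at 8.27 ± 6.20 against 0.471 ± 0.942 CPM (SD, n = 4 each). The microtubule-associated proteins Map2, at 5.58 ± 7.61 against 25 ± 23.6 CPM, and Mapt, at 6.83 ± 5.06 against 36.4 ± 21.7 CPM (SD, n = 4 each), lay the other way. Of the 32, 17 could be tested, 4 above and 13 below 0, and none was called. The CPM ranges lay wholly lower in the fibril group for 6 of these 17, beside 2.92% of all tested genes. They lay wholly higher for 0 of the 17, beside 2.7% of all tested genes. Marker sums of other cell types overlapped between the groups. Border-associated macrophage markers were not low, at 1472 to 2180 CPM in the fibril group and 1210 to 1753 CPM alone. That sum held members that moved opposite ways, chosen here after their values were seen. Mrc1 was at 157 ± 44.7 against 317 ± 26.1 CPM and Pf4 at 553 ± 188 against 241 ± 70.9 CPM (SD, n = 4 each). Of 7 tested members 5 were above and 2 below 0, and none was called. Sums of the other cell types were low, with 27.0 to 133 against 27.7 to 56.9 CPM for astrocytes. The oligodendrocyte lineage had 164 to 358 against 185 to 305 CPM, and endothelium 19 to 64.0 against 28.9 to 113 CPM. In the oligodendrocyte list Cspg4, also chosen after its values were seen, was at 73.9 ± 28.0 against 15.6 ± 18.0 CPM (SD, n = 4 each). Of the 11 tested members of that list 3 were above and 8 below 0. Fibroblast and mural markers reached at most 6.77 and 23.4 CPM, and neutrophil and monocyte markers at most 10.6 and 9.12 CPM. In bulk RNA, fewer cells of a type and less RNA per cell cannot be told apart, and the part of neuronal RNA in the falls of Tubb2b, Igfbpl1 and Tox2 was not tested.

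Cell cycle genes lay below the alone level in 3 of the 4 fibril libraries, with no member passing the test. Of 41 members tested, 39 had a fitted change below 0 and 2 above, with a median of −0.79 (log2) over the 31 members of at least 10 CPM. Their level in single libraries was 0.17 in fibril 1 and −0.94, −0.80 and −0.86 in fibril 2 to 4, against −0.06, 0.69, 0.05 and −0.57 in alone 1 to 4, so fibril 1 lay within the alone range and the other 3 lay below it. Without fibril 1 the median was −1.06, and without alone 2, the highest alone library, it was −0.45 with 7 members above 0. Mcm7, a subunit of the replicative helicase, was at 120, 58.7, 40.0 and 46.4 CPM against 202, 176, 263 and 123 CPM (log2 −1.53, 95% interval −2.38 to −0.67, adjusted p = 0.144). Stmn1, a microtubule-destabilising protein of dividing cells, was at 107 ± 52.6 against 256 ± 80.5 CPM (SD, n = 4 each; adjusted p = 0.167).

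Regulators of Ras and other small GTPases leaned the same way. Rasgrp3 was the called member, and 18 of 24 tested members had a fitted change below 0, with a median of −0.52 (log2) over 16 members of at least 10 CPM. In single libraries the list stood at −0.54, −0.38, −0.62 and −0.67 in fibril 1 to 4 and at 0.11, −0.30, 0.09 and 0.02 in alone 1 to 4, which did not overlap. Among all tested genes 5876 of 11276 had a fitted change below 0.

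**Figure D3:**
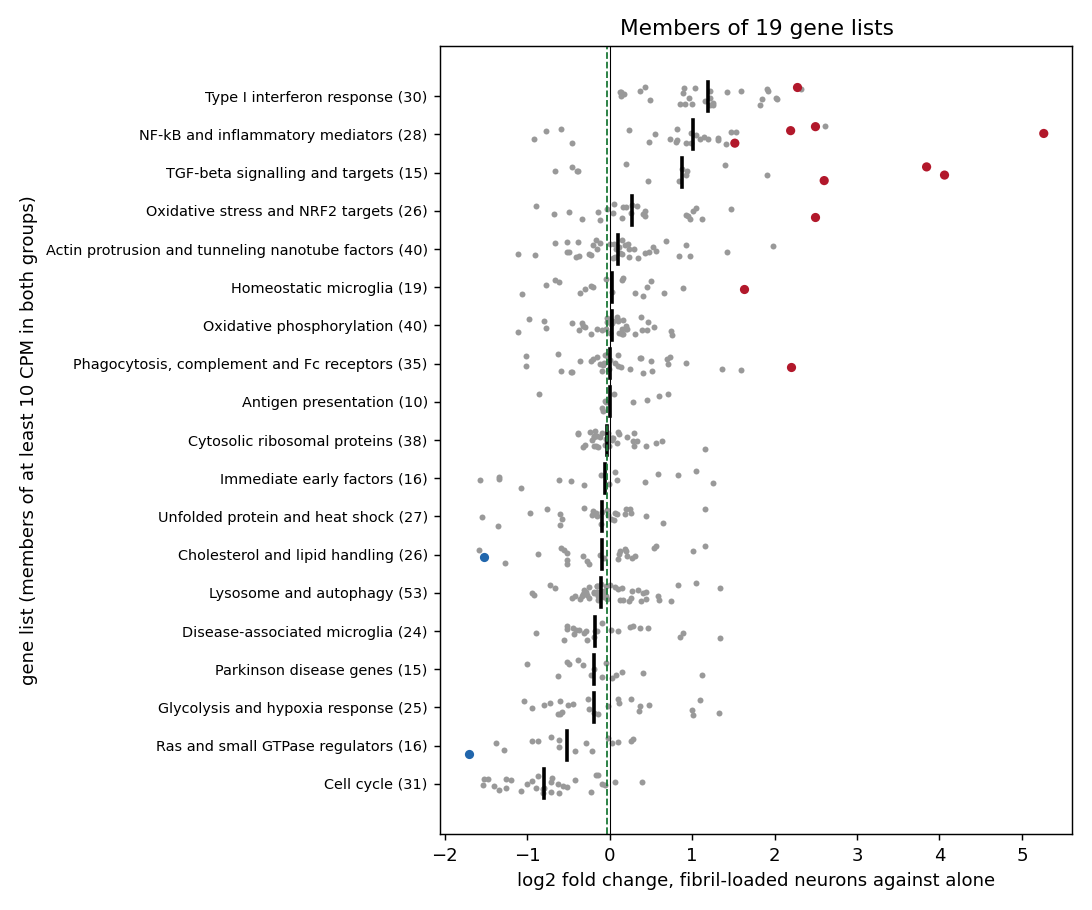
Log2 fold change of fibril-loaded neurons against microglia alone for members of 19 gene lists whose mean reached 10 CPM on both sides (their number in brackets), with black bars at list medians, red points for called rises, blue points for called falls and grey points for uncalled members. The dashed line is the median of all genes at that level (−0.03), and the interferon (1.19) and cell cycle (−0.79) lists lie at the ends.

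In the other lists, counts above and below 0 cover all tested members, while medians cover those of at least 10 CPM in both groups. These lists had at most 1 called member each. For the oxidative stress and NRF2 target list it was Sod2, already given (22 of 30 tested above 0, median log2 0.27, or 0.47 without fibril 1). Hmox1, the haem oxygenase of that list, was at 260, 1118, 420 and 465 CPM against 191, 99.3, 340 and 185 CPM, groups that overlapped (adjusted p = 0.279). For cholesterol and lipid handling it was Scd2 (14 above and 15 below 0, median −0.10). Plin2, the lipid droplet coat protein, chosen after its values were seen, was at 1948 ± 344 against 876 ± 171 CPM (SD, n = 4 each; log2 1.15, 95% interval 0.57 to 1.74, adjusted p = 0.1). For phagocytosis, complement and Fc receptors it was Tlr2 (20 above and 17 below 0, median 0.01).

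No member was called for disease-associated microglia (12 above and 15 below 0, median −0.18). Ctsl, the lysosomal protease cathepsin L, came nearest at 689, 1012, 618 and 1335 CPM against 237, 493, 525 and 194 CPM (log2 1.33, 95% interval 0.66 to 2.01, adjusted p = 0.1). Lgals3, galectin-3, was at 2695 ± 360 against 5021 ± 1782 CPM (SD, n = 4 each; log2 −0.90, adjusted p = 0.194). For lysosome and autophagy genes 21 were above and 35 below 0 (median −0.10), and 26 of the 53 members of at least 10 CPM had a 95% interval within 2-fold either way. Atp6v1a, a subunit of the vacuolar proton pump, was at 427 ± 139 against 807 ± 169 CPM (SD, n = 4 each; adjusted p = 0.227). Among Parkinson disease genes 8 were above and 12 below 0 (median −0.18). Rab32, a regulator of lysosome-related traffic, was at 99.3 ± 31.7 against 45.8 ± 17.4 CPM (SD, n = 4 each; adjusted p = 0.306), and Gpnmb, a lysosomal glycoprotein, at 1073 ± 211 against 1538 ± 441 CPM (SD, n = 4 each; adjusted p = 0.606). Lrrk2, a kinase gene mutated in familial Parkinson disease, had no count in the fibril libraries and 0, 0, 0.62 and 4.10 CPM in alone 1 to 4, and did not pass the filter on low counts.

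Antigen presentation genes gave 15 above and 6 below 0 with no call. The median was 0.28 (log2) over all 21 tested members and 0.00 over the 10 of at least 10 CPM. The class I heavy chains H2-D1, at 1283 ± 219 against 787 ± 199 CPM (SD, n = 4 each; adjusted p = 0.4), and H2-K1, at 1465 ± 329 against 968 ± 216 CPM (SD, n = 4 each; adjusted p = 0.566), share sequence, so their reads may be divided between them. Actin protrusion and tunneling nanotube factors gave 27 above and 19 below 0 (median 0.10). Ezr, which encodes ezrin, a linker of membrane and actin, was at 103, 136, 140 and 127 CPM against 29.2, 27.6, 77.5 and 53.9 CPM (log2 1.43, adjusted p = 0.194), and Vasp, an actin elongation factor, was at 203 ± 67.5 against 114 ± 38.7 CPM (SD, n = 4 each; adjusted p = 0.494).

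Glycolysis and hypoxia genes gave 15 above and 18 below 0 (median −0.20). Without alone 2 the direction turned, with 19 above and 13 below 0 and a median of 0.20. Hk2, a hexokinase, stood at 288 ± 81.8 against 144 ± 31.8 CPM (SD, n = 4 each; adjusted p = 0.179). The hypoxia factor gene Hif1a stood at 93.9 ± 16.3 against 37.3 ± 17.1 CPM (SD, n = 4 each; adjusted p = 0.2). Oxidative phosphorylation genes gave 25 above and 16 below 0 (median 0.03), the unfolded protein and heat shock list 15 and 18 (median −0.09), immediate early factors 11 and 13 (median −0.06) and cytosolic ribosomal proteins 15 and 23 (median −0.03), all with no call. In the last 3 of these lists the lowest unadjusted p belonged to Atf6, a sensor of endoplasmic reticulum stress (log2 −1.55, adjusted p = 0.192), Ier5, an early response gene (log2 −1.08, adjusted p = 0.166), and Rplp2, a stalk protein of the ribosome (log2 0.57, adjusted p = 0.602). For ribosomal proteins 32 of 38 members had a 95% interval within 2-fold either way.

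**Figure D4:**
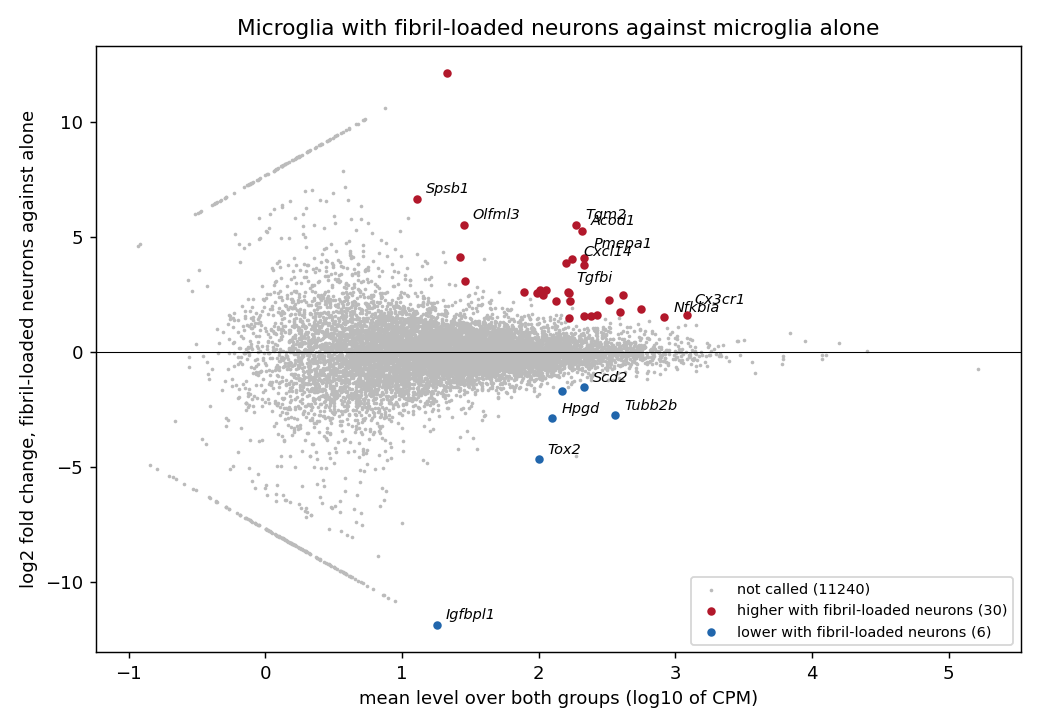
Log2 fold change (vertical axis) of the 11276 tested genes against their mean level over both groups (horizontal axis, log10 of CPM), with the 30 called rises in red and the 6 called falls in blue. Igfbpl1 had no count in the fibril group, so its fitted value depends on the prior count and is no bound, and the same holds for other points with no count in 1 group, on the 2 diagonal bands.

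Calls came from moderately and highly expressed genes. None of the 3739 genes with a mean under 10 CPM over both groups was called, against 8 of 5926 at 10 to 100 CPM, 27 of 1522 at 100 to 1000 CPM and 1 of 89 above 1000 CPM (Cx3cr1). The median half-width of the 95% interval was 5.04 (log2) in the lowest class and 1.38, 0.65 and 0.54 in the next 3. A 2-fold difference was thus smaller than the median half-width both under 10 CPM and at 10 to 100 CPM. The smallest called rise was 2.75-fold. The interval lay within 2-fold either way for 62 of the 89 most abundant genes.

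The 36 genes were then read in the comparison of fibril-loaded with untreated neurons, in which the same fibril libraries take part, so its values are set side by side with the first and support nothing in it. No gene of the 11276 was called there by edgeR (smallest adjusted p = 0.903, with 445 genes at an unadjusted p under 0.05). Tgfbi was at 165, 359 and 342 CPM in untreated 1 to 3, within the range of the fibril libraries apart from untreated 1, and the fibril minus untreated difference was 0.04 (log2, 95% interval −0.73 to 0.80). Acod1 was at 258, 98.0 and 578 CPM there (0.38, interval −1.0 to 1.75), Cx3cr1 at 2144, 1961 and 1535 CPM (−0.02, interval −0.61 to 0.57) and Tubb2b at 39.8, 88.3 and 103 CPM (0.31, interval −0.49 to 1.12). Tlr2 was at 220, 226 and 436 CPM in untreated 1 to 3 (−0.07, interval −0.88 to 0.73). For 34 of the 36 genes the unadjusted 95% interval held 0, but it lay within 2-fold either way for only 8, and for the other 28 it reached beyond 2-fold.

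The 2 exceptions were Cxcl14, at 96.7, 282 and 188 CPM in untreated 1 to 3 (fibril minus untreated 0.82, interval 0.06 to 1.58), and Igfbpl1, at 2.60, 0 and 0 CPM. Fn1, at 26.2, 85.2 and 98.7 CPM in untreated 1 to 3 and 100 to 173 CPM in the fibril group, had an interval that just held 0 (0.94, interval −0.02 to 1.90). Cdk18, a cyclin-dependent kinase, lay between the other groups in the fibril libraries. It was at 29.9, 23.2, 73.2 and 52.1 CPM in the fibril group, 8.77, 17.3 and 10.3 CPM with untreated neurons and 194, 125, 120 and 196 CPM alone, 3 groups that did not overlap. Against microglia alone it narrowly missed the threshold (log2 −1.83, SE 0.41, adjusted p = 0.0576), and against untreated neurons the difference was 1.88 (interval 0.94 to 2.83) with an adjusted p of 0.965 over all genes.

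**Figure D5:**
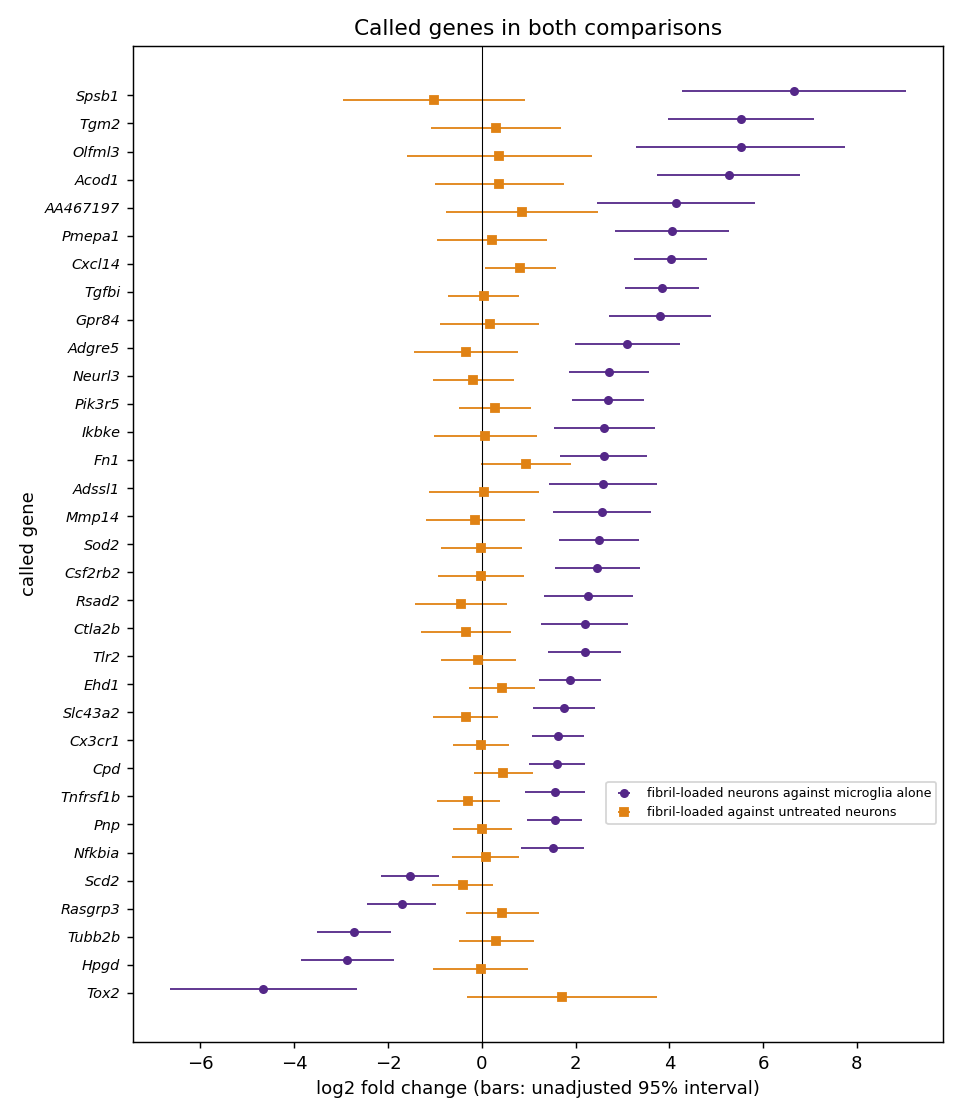
Log2 fold change with unadjusted 95% interval for 33 of the 36 called genes (Igfbpl1, with no count in the fibril group, is among those left out), against microglia alone (purple circles) and against untreated neurons (orange squares). The purple values lie away from 0 because the genes were called on them, while the orange intervals hold 0 for every gene shown except Cxcl14.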

How the data were processed

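Per the labels' protocols, bulk RNA of primary mouse microglia went into 3′ mRNA libraries. Raw counts, deposited by the authors for 16934 gene symbols (2828 with none in any library), gave all main results. The authors' normalized table was used once and treated as a score, since tested on the values it is close to counts divided by 1 factor per library. STAR, Partek, DESeq2 and the mm10 build are named, with no versions, in the submitters' processing notes, and strand use and duplicate removal are not given in the sources used here. Groups follow the treatment group of each sample. In R 4.3.3, edgeR 4.0.16 was fitted to all 11 libraries (filterByExpr, TMM, quasi-likelihood test, two-sided, group only), with Benjamini-Hochberg adjustment over 11276 genes, a threshold of 0.05 and a common biological coefficient of variation of 1.15. The method was tested on simulated data. Marker sums and Rn45s shares were compared by exact permutation, in Python 3.11. The median correlation of 2 libraries on the log2 scale was 0.787 inside a compared group and 0.776 across them, and no pair agreed within sampling noise. Folds against a group without counts use a floor of 3 per library and cover counting error alone. With at most 60 genes called, called genes could be named (some are not reported here), along with members of each list without a call that had the smallest p and a fixed set of genes of interest. Genes, lists and rules were chosen with earlier results of these data known, so lists are described by counts and medians only. The compared groups were also fitted alone, and DESeq2 1.42.0, limma 3.58.1, other filters and scaling, a replicate block and the omission of each library were tried. Positions are from GENCODE M21 and promoters from RefSeq GRCm38.p6.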

Additional observations from a re-analysis of the deposited data

Results flagged for a closer look

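Values of single libraries were checked, with gene levels taken as log2(CPM + 1). Each named gene, each group of 4 and the Rn45s share, 146 sets in all, went through Dixon's test at its 95% level. About 1 in 20 sets passes it by chance, and 3 did. Pnp was at 213 CPM in fibril 1, below the 347 to 359 CPM of fibril 2 to 4. Tnf was at 15.2 CPM in fibril 2, below the 157 to 244 CPM of the other fibril libraries. The Rn45s share of counts was 17.0% in fibril 1, above the 11 to 11.7% of fibril 2 to 4. No cause was tested for any of these values.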

How the results depend on the processing

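The counts of called genes (36 in all, 30 higher and 6 lower) differed between settings. RLE scaling gave 36 and called all 36 again. With no filter on low counts there were 164 (114 higher, 50 lower), and DESeq2 gave 224 (132 higher, 92 lower), which include all 36 and 35 of them, respectively. A mean of at least 5 CPM left 26 genes, of which 3 were lower, and the 2 compared groups alone gave 29 with 28 of the 36. Leaving out each library in turn gave 23 to 42 genes, 21 to 39 higher and 2 to 5 lower. With alone 1 and fibril 1 both left out, the libraries with the fewest genes in their groups, 18 were called (16 higher, 2 lower), an alternative chosen after seeing the data, as was leaving out Rn45s, which gave 37. limma on the normalized table gave 40 and 34 of the 36. The Rn45s difference was −8.42 to −4.82 percentage points across omissions. No called gene changed direction in any of these alternatives. Of the uncalled genes named, Il1b did under the replicate block (−1.96), without fibril 4 (−0.15) and with limma (−0.77). Trem2 did without alone 2 (−0.03), alone 3 (−0.03) or fibril 2 (−0.05), and so did the oligodendrocyte and fibroblast marker sums when 1 library was left out.

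Serial numbers in the sample titles run in steps of 7, and libraries of the same run were tried as a replicate block. That pairing gave 66 genes (53 higher, 13 lower), which include all 36. Deviations of paired alone and fibril libraries correlated at −0.02 to 0.13. Pairs with an untreated library gave −0.08 to 0.17, the highest for fibril 1 with untreated 1. Pairs of different number gave −0.12 to 0.12, and not every library correlated best with its own number. What the numbers stand for is not given, so the main fit does not use the pairing. Over all settings the interferon list had 34 to 37 members above 0 (median 0.73 to 1.28), the NF-κB list 28 to 33 (0.78 to 1.33) and the TGF-β list 17 to 19 (0.58 to 1.02), while the cell cycle list had 34 to 40 below 0 (−1.06 to −0.45) and the Ras list 14 to 21 (−0.60 to −0.35). Medians of lists near 0 turned with single libraries. Without alone 2 they were 0.24 for homeostatic microglia, 0.22 for oxidative phosphorylation and 0.14 for ribosomal proteins. Immediate early factors were at 0.30 without alone 3, cholesterol and lipid handling at 0.05 without fibril 4 but −0.35 without fibril 3, and antigen presentation at 0.23 without alone 1 but −0.13 without fibril 1. Disease-associated microglia were at −0.06 without fibril 1, Parkinson disease genes at −0.06 without alone 4 and actin protrusion factors at 0.02 without fibril 1.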
